A study of Arabidopsis thaliana with 6 samples.

Results

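The genes described here are 10 transcription regulators of chloroplast development, taken by locus from the 38064 genes of the count table. They are GLK1 (AT2G20570), GLK2 (AT5G44190), GNC (AT5G56860), GNL (AT4G26150, also called CGA1) and the plastid sigma factor genes SIG1 (AT1G64860), SIG2 (AT1G08540), SIG3 (AT3G53920), SIG4 (AT5G13730), SIG5 (AT5G24120) and SIG6 (AT2G36990). Transcripts were counted in Arabidopsis thaliana seedlings grown in darkness for 5 days at 22 degrees C. There were 3 libraries of the wild type Col-0 and 3 of the double mutant bdh1-1 bdh2-1, which carries mutations in both BCL-DOMAIN HOMOLOG genes. Their proteins belong to SWI/SNF complexes, which remodel chromatin, according to the series title. Labels of the samples name whole etiolated seedlings and the design text names hypocotyls. Nothing in the labels says whether the replicates came from separate cultures, so p-values measure only the spread between these libraries. Values per library are listed below in the order of replicates 1, 2 and 3.

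GLK1 and GLK2 are GARP-family transcription factors that activate nuclear genes for light-harvesting antenna proteins and chlorophyll synthesis. GNC and GNL are GATA zinc-finger factors of the LLM-domain class, known to promote greening and to be induced by light and cytokinin. The sigma factors are encoded in the nucleus and imported into plastids, where they direct the plastid-encoded RNA polymerase to its promoters. In darkness plastids develop as etioplasts, and greening awaits light.

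The pair in which 1 paralog fell and the other did not pass the test, GNC and GNL, is shown by sequence from the TAIR10.1 genome and RefSeq annotation. GNL lies on chromosome 4 at chr4:13253084-13255106, plus strand, and GNC on chromosome 5 at chr5:22989216-22991530, minus strand. The first set is the 78 coding bases from the first to the last cysteine of the single zinc finger, the DNA-binding part that defines the family, with the 4 cysteine codons in capitals.
GNC: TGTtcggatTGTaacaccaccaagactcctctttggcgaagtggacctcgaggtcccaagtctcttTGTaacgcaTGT
GNL: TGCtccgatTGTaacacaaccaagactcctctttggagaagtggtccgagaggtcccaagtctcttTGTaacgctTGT
The fingers were identical at 70 of 78 bases (89.7%), and the whole coding sequences at 77.5% of 1022 aligned bases. None of the 10 genes matched another annotated transcript over 100 or more bases with an identity of 95% or above. The second set is the 250 bases before the annotated start of each gene, chr5:22991531-22991780 (minus strand) for GNC and chr4:13252834-13253083 (plus strand) for GNL, 5′ to 3′ on the gene's strand.
GNC: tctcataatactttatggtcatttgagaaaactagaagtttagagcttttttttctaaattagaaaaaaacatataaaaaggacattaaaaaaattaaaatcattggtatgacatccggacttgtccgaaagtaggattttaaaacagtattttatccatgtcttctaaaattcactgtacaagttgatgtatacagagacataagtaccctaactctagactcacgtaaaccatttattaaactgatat
GNL: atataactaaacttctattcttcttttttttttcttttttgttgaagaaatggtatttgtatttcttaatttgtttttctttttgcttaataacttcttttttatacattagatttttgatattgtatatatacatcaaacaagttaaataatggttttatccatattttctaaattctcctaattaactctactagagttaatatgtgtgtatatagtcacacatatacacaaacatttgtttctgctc
These windows were searched on both strands for CACGTG (the G-box, bound by PIF and HY5 proteins), GATAAG (bound by zinc-finger factors of this family) and CCAATC (a motif linked to GLK1). Neither window holds any of the 3, so both are printed wholly in lower case. Among all 10 genes, GATAAG occurs in GLK1 and SIG3, CCAATC only in SIG2 and CACGTG in none. The shares of 27443 protein-coding nuclear genes with each motif in the same window are 6.49% for CACGTG, 12.3% for GATAAG and 10.2% for CCAATC.

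Library totals ran from 40876788 to 44982000 counts, and 20791 genes passed the filter on low counts. The loci assigned to the BDH genes from the literature, AT4G22320 and AT5G55210, had log2 fold changes of -3.63 and -5.47 in the mutant (edgeR adjusted p 0.000105 and 1.66e-05). Longer transcripts were counted relatively lower in the mutant libraries. The change in log2 CPM (counts scaled to a common library size, reported as CPM below) for each doubling of exonic length was 0.02 to 0.172 in the wild-type libraries and -0.172 to -0.0175 in the mutant libraries. A correction for length was therefore also fitted, and values with it are given below for most of the results it moved. The 7 root markers summed to 277.7 to 368.2 CPM in the wild type and 300.4 to 403 CPM in the mutant, with CASP1 alone at 176 and 213 CPM on average. COBL9, EXPA7 and PRP3 were low, at 0.206, 0.429 and 1.25 CPM in the wild type and 0.325, 0.369 and 0.973 CPM in the mutant. The wild-type libraries held 4, 53 and 0 counts of EXPA7 and 14, 144 and 8 of PRP3. In sign 5 of the 7 were lower in the mutant, and 1 of the 7 was called, against 23.5% of all tested genes. This was PIN2, a root auxin carrier gene (-0.41, edgeR adjusted p 0.0163), which lost the call with length offsets (-0.22). PORA, a gene of dark-grown seedlings, stood at 553 CPM in the wild type and 950 CPM in the mutant. The light-induced genes ELIP1 and ELIP2 were also detected, at 27.0 and 36.8 CPM in the wild type and 42.4 and 38.0 CPM in the mutant. What these marker levels contribute to the results was not tested.

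All 10 genes were detected and tested. Of these 10 genes, 1 was past an adjusted p of 0.05 (edgeR quasi-likelihood test, Benjamini-Hochberg over all genes), against 23.5% of all tested genes, and that gene, GNL, was lower. The share of all tested genes called lower was 11.3%. The median log2 fold change over the 10 genes was -0.15, with 8 lower and 2 higher in sign, and over all tested genes it was 0.00. With length offsets, which take each library's trend with exonic length out of the fit, 2 of the 10 genes were called, GNL and GLK2, both lower, against 19.9% of all tested genes called and 9.76% called lower. Levels in CPM were free of overlap between the groups for 1 of the 10 genes, again GNL, against 41.3% of all tested genes.

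**Figure D1:**
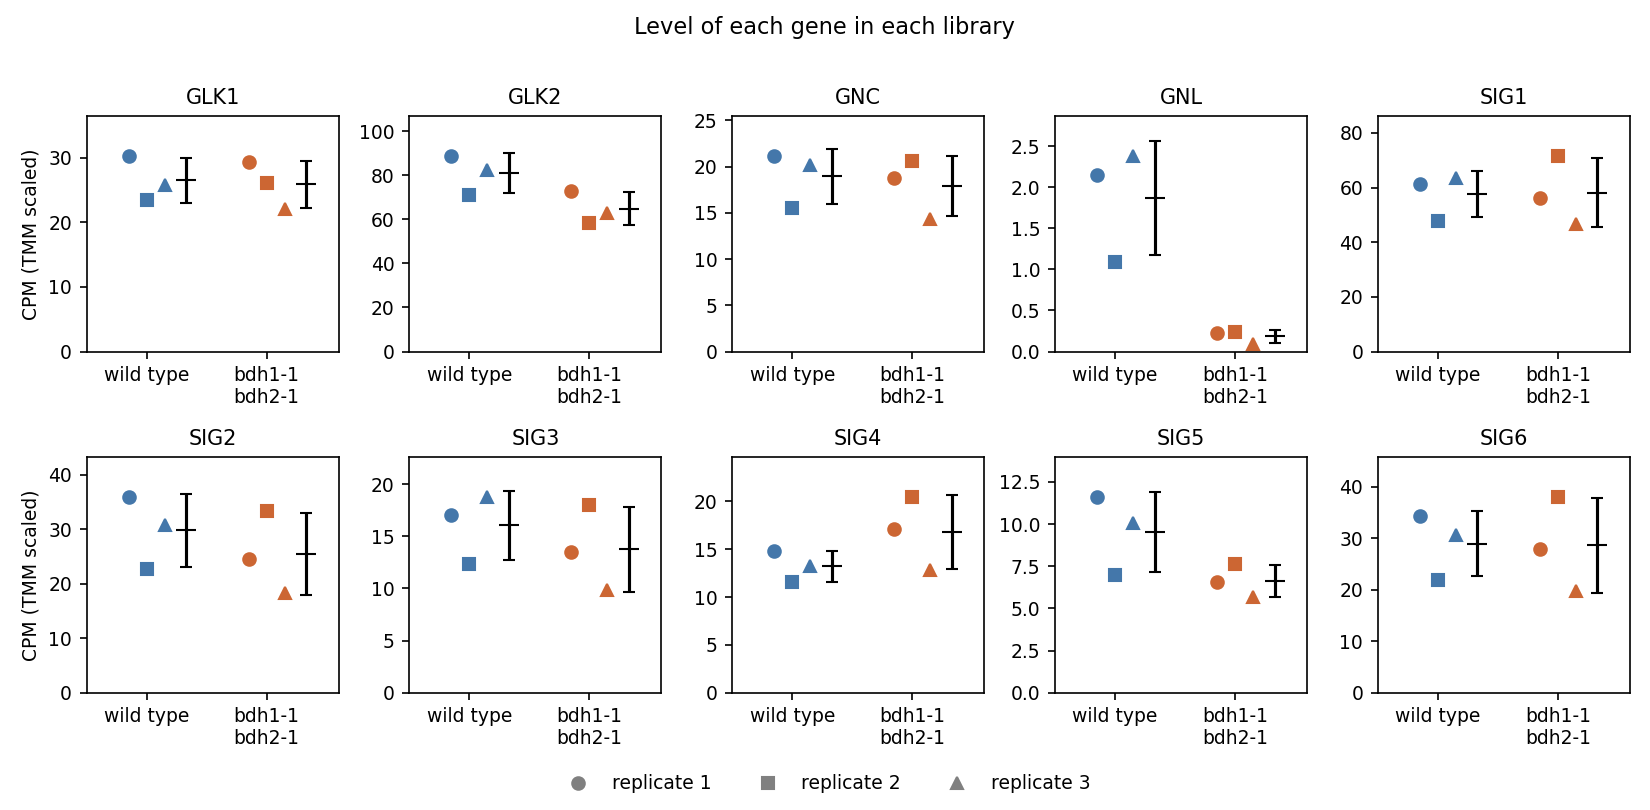
Level of each of the 10 genes in each library, in CPM (library-scaled counts, TMM factors), with a linear axis from 0 in each panel. Symbols mark replicates and bars the mean and SD of 3 libraries. The mutant libraries lie below all wild-type libraries for GNL, at 0.0926 to 0.238 against 1.09 to 2.39 CPM, and the groups overlap for the other 9 genes.

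GNL, whose protein acts with GNC in chlorophyll and chloroplast development, fell about 10-fold. The wild-type libraries held 97, 48 and 110 of its counts, against 10, 10 and 4 in those of the mutant. In CPM these were 2.15, 1.09 and 2.39 in the wild type and 0.228, 0.238 and 0.0926 in the mutant. Every mutant library was below every wild-type library, and wild-type replicate 2 was the lowest of its group. Averaged by genotype, GNL stood at 1.87 ± 0.692 CPM in Col-0 and at 0.186 ± 0.0812 CPM in the double mutant (SD, n = 3 each). This gave a log2 fold change of -3.31 (SE 0.431, 95% interval -4.27 to -2.35, edgeR adjusted p 0.00124), or 9.94-fold lower. The pooled counts, 255 and 24, give a ratio of 10.1 with an exact 95% interval of 6.65 to 16.1. That interval takes each count as independent and leaves out the spread between libraries. As 72.6 to 76.7% of counts from 1 to 20 were even numbers, it may be too narrow even for counting error. As bulk RNA was measured, fewer cells expressing GNL and less GNL RNA per cell cannot be told apart. Of all tested genes, 0.188% had an absolute log2 fold change at least as large. The call held in all 21 alternatives that tested GNL, with log2 fold changes from -3.65 to -2.99. The gene passed the filter of 0.223 CPM, taken on unscaled library totals, through all 3 wild-type libraries and 1 of the 3 mutant libraries, and it was not tested when 10 counts were required in every library. The authors' deposited table gives GNL a log2 fold change of -3.19 and an adjusted p of 4.34e-10.

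GNC, the paralog of GNL, did not pass the test. Its level was 21.2, 15.6 and 20.1 CPM in the wild-type libraries and 18.8, 20.6 and 14.3 CPM in the mutant libraries. The groups overlapped throughout, and the log2 fold change was -0.08 (SE 0.157, 95% interval -0.43 to 0.26, edgeR adjusted p 0.719). The ratio of GNC to GNL counts was 9.83, 14.2 and 8.40 in the wild type and 78.6, 82.3 and 137 in the mutant. This ratio is free of library scaling, and all 3 mutant values were above all wild-type values. On the log2 scale it was 3.40 ± 0.389 (SD, n = 3) in the wild type and 6.59 ± 0.447 (SD, n = 3) in the mutant, a difference of 3.19 (two-sided exact permutation p = 0.1, the smallest that 3 against 3 can give). Per kilobase of exon GNC was at 10.6 ± 1.67 and GNL at 1.15 ± 0.424 CPM per kilobase (SD, n = 3 each) in the wild type, and in the mutant they were at 9.99 and 0.114, so GNC was the more abundant paralog in both genotypes.

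Of the 5 other GATA genes of this class that were listed, 4 were tested and none of these was called lower. GATA16 was the 1 gene of 4 tested past the threshold, against 23.5% of all tested genes. It was higher, with 2.95 ± 0.509 CPM in the wild type and 4.61 ± 0.4 CPM in the mutant (SD, n = 3 each). Its log2 fold change was 0.64 (edgeR adjusted p 0.0245), and 0.47 with length offsets (adjusted p 0.0658), where the call was lost. In all, 13 of 22 alternatives lost the call of GATA16, among them the replicate block (edgeR adjusted p 0.0721). GATA15 (0.13), GATA17 (-0.33) and GATA17L (0.21) had edgeR adjusted p values from 0.25 to 0.47, and the sign of GATA15 turned with length offsets (-0.04). With these offsets GATA17 was at -0.50 and GATA17L at 0.06, neither past the threshold. GATA23 had at most 14 counts in any library and was not tested. It stood at 10, 14 and 8 for Col-0 against 6, 0 and 2 for the double mutant, or 0.237 and 0.061 CPM on average. Each mutant value was below each wild-type value, the same direction as GNL, but whether GATA23 changed was not tested. The median log2 fold change of the 4 tested genes was 0.17, against 0.00 over all tested genes.

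The genes next to GNL on chromosome 4 were examined after its value was seen. Of the 5 protein-coding genes on each side, 8 were tested, with log2 fold changes from -1.17 to 0.20. BGAL12, a beta-galactosidase gene 2 places before GNL, was lower by this test (-0.51, edgeR adjusted p 0.0207). ACS7, an ethylene synthesis gene 5 places after it, was also lower (-1.17, edgeR adjusted p 0.041). The nearest tested neighbour, ACHT1, had a log2 fold change of 0.15 (edgeR adjusted p 0.368). GNL lies 1.46 Mb from AT4G22320 on the same chromosome. Of the 326 tested genes between them 73 were called, which is 22.4% against 23.5% of all tested genes, with a median log2 fold change of 0.00.

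**Figure D2:**
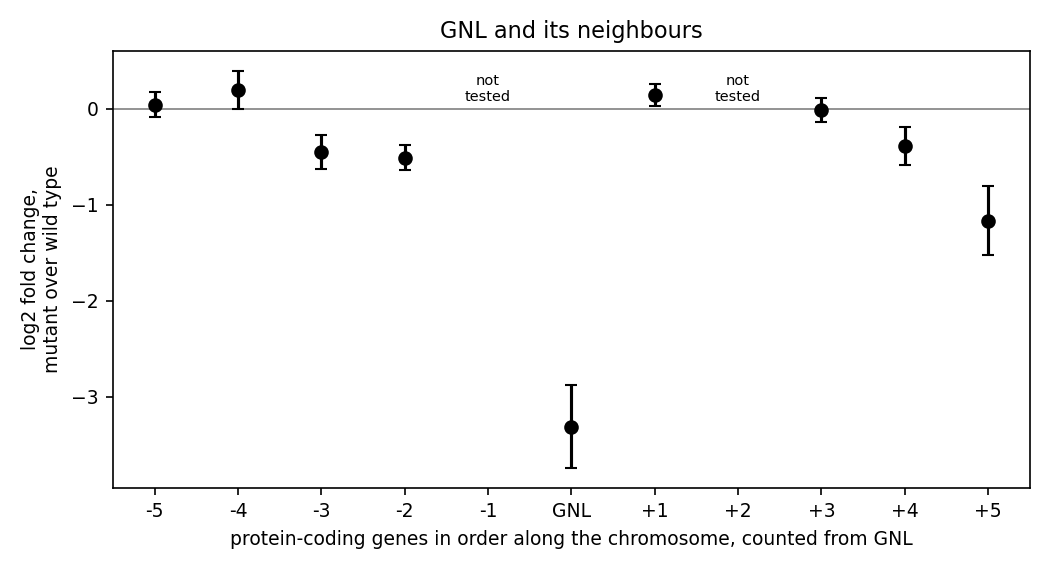
Log2 fold change, mutant over wild type, of GNL and the 5 protein-coding genes on either side in chromosomal order, with SE bars. GNL stands at -3.31 and the 8 tested neighbours between -1.17 and 0.20.

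GLK1 lies at chr2:8855302-8857758 (plus strand) and GLK2 at chr5:17798262-17800926 (plus strand) in TAIR10.1. GLK2 was the most abundant of the 10 genes per kilobase, and neither GLK gene was past the threshold. GLK2 stood at 88.9, 71.0 and 82.4 CPM in the wild-type libraries and 73.0, 58.3 and 62.9 CPM in the mutant libraries. The groups overlapped only in that mutant replicate 1 was above wild-type replicate 2. GLK2 had a log2 fold change of -0.32 (SE 0.115, 95% interval -0.58 to -0.06), with an unadjusted p of 0.0201 and an adjusted p of 0.0701 in edgeR, so it was not past the threshold. It was past it in 4 of 22 alternatives, among them DESeq2 (adjusted p 0.0464), length offsets (edgeR adjusted p 0.0475) and the fit without wild-type replicate 2 (edgeR adjusted p 0.0287), and in the authors' deposited table (adjusted p 0.0492, log2 fold change -0.28). Over the edgeR and DESeq2 alternatives its adjusted p ranged from 0.0144 to 0.217, and its log2 fold change from -0.45 to -0.24.

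GLK1 had 30.3, 23.5 and 25.7 CPM in the wild-type libraries and 29.4, 26.0 and 22.1 CPM in the mutant libraries. The groups overlapped fully, with a log2 fold change of -0.04 (SE 0.131, 95% interval -0.33 to 0.26, edgeR adjusted p 0.86). The ratio of GLK1 to GLK2 counts was 0.341, 0.331 and 0.312 in the wild type and 0.403, 0.447 and 0.352 in the mutant. All 3 mutant ratios were above all wild-type ratios. The log2 ratio was -1.61 ± 0.065 (SD, n = 3) in the wild type and -1.33 ± 0.174 (SD, n = 3) in the mutant, a difference of 0.28 (two-sided exact permutation p = 0.1, the smallest possible). Both genes have nearly the same exonic length, 1731 and 1732 bases, so the length trend acts on them alike. Leaving out any 1 library gave differences from 0.20 to 0.37.

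**Figure D3:**
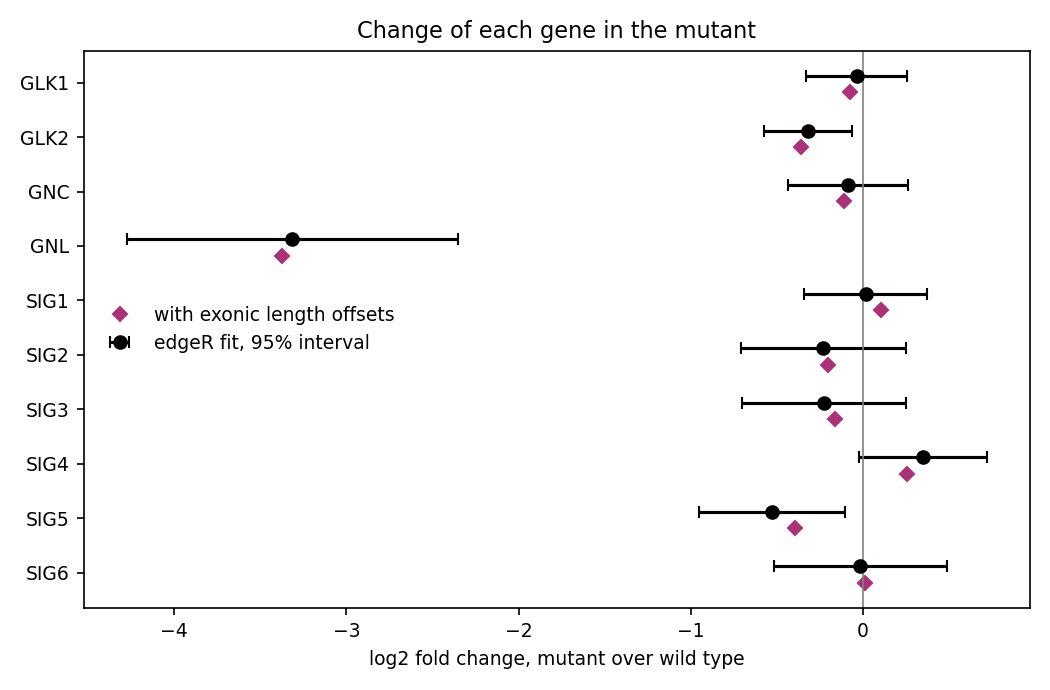
Log2 fold change of each of the 10 genes, mutant over wild type, with its 95% interval from the edgeR fit (circles) and the value with exonic length offsets (diamonds). The interval of GNL, -4.27 to -2.35, lies apart from those of the other 9 genes, and the intervals of GLK2 and SIG5 also lie below 0 although their adjusted p values were above 0.05.

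None of the 6 sigma factor genes was past the threshold by edgeR, against 23.5% of all tested genes. In TAIR10.1 they lie at chr1:24097736-24100970 (plus strand) for SIG1, chr1:2703295-2706860 (plus strand) for SIG2, chr3:19960789-19963980 (minus strand) for SIG3, chr5:4429095-4430901 (minus strand) for SIG4, chr5:8157151-8160343 (minus strand) for SIG5 and chr2:15537225-15540139 (minus strand) for SIG6. SIG5 had an unadjusted p under 0.05 and was the 1 sigma factor gene that DESeq2 called. SIG5, known for light- and stress-induced transcription of psbD, had the lowest fold change. This gene was at 11.6, 6.96 and 10.1 CPM in the wild-type libraries and 6.56, 7.61 and 5.69 CPM in the mutant libraries. Mutant replicate 2 lay above wild-type replicate 2, and no other mutant library reached a wild-type value. The log2 fold change was -0.53 (SE 0.191, 95% interval -0.95 to -0.10), with an unadjusted p of 0.0196 and an adjusted p of 0.0689 in edgeR. SIG5 was past the threshold with DESeq2 (adjusted p 0.0433), without wild-type replicate 2 (edgeR adjusted p 0.0113) and in the authors' deposited table (adjusted p 0.0424). SIG5 has the longest exonic sequence of the 10, 2635 bases, and with length offsets its log2 fold change was -0.39 (edgeR adjusted p 0.116). Over all edgeR and DESeq2 alternatives the adjusted p ranged from 0.0113 to 0.362.

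SIG4, which is known for transcription of the plastid ndhF gene, had the highest fold change. Its level was 14.8, 11.6 and 13.2 CPM in the wild-type libraries and 17.1, 20.5 and 12.8 CPM in the mutant libraries. Mutant replicates 1 and 2 exceeded every wild-type library, and mutant replicate 3 lay within the wild-type range. The log2 fold change was 0.35 (SE 0.167, 95% interval -0.02 to 0.72, edgeR adjusted p 0.153). Without mutant replicate 3 it was 0.52 and past the threshold (edgeR adjusted p 0.0337), and with length offsets it was 0.26 (adjusted p 0.314). SIG4 has the shortest exonic length of the 10, 1454 bases, and overlaps AT5G13720 on the opposite strand. Since the strand setting of the counting is not given in the sources used here, its counts may include reads of that gene or lack reads shared with it.

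SIG2, needed for transcription of plastid tRNA genes, was at 36.0, 22.6 and 30.8 CPM in the wild type and 24.5, 33.4 and 18.4 CPM in the mutant. SIG3, known for transcription of psbN, was at 17.0, 12.4 and 18.8 CPM in the wild type and 13.5, 17.96 and 9.81 CPM in the mutant. For both genes the groups overlapped and the log2 fold change was -0.23, with edgeR adjusted p values of 0.463 and 0.467. SIG3 overlaps AT3G00910 on the same strand, so its counts are uncertain in the same way. SIG1, linked to photosystem I genes, was at 61.4, 47.9 and 63.3 CPM in the wild type and 56.2, 71.7 and 46.5 CPM in the mutant, a log2 fold change of 0.02 (SE 0.16). SIG6, a general factor of early seedling plastids, was at 34.2, 21.9 and 30.6 CPM in the wild type and 28.0, 38.1 and 19.7 CPM in the mutant, a log2 fold change of -0.02 (SE 0.225). The 95% intervals, -0.34 to 0.37 for SIG1 and -0.52 to 0.49 for SIG6, exclude a 2-fold change but not the smaller changes within them.

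The sigma factor genes were high or low together in the same libraries. Wild-type replicate 2 and mutant replicate 3 were the lowest of their groups for all 6 genes, and mutant replicate 2 was the highest of its group for all 6. The mean deviation of their log2 CPM from the mean of all libraries was 0.268, -0.267 and 0.174 for the wild type, whereas the mutant had -0.0511, 0.304 and -0.428. Over the 6 libraries, Pearson's r of log2 CPM was 0.974 between SIG1 and SIG6 and 0.039 between SIG4 and SIG5, as descriptions. GNC followed the same libraries, with r of 0.965 to SIG6 and 0.955 to SIG2. GNL and GLK2 had r of 0.83 to each other and -0.36 each to SIG4. These points share libraries and depth and include the genotype difference. The pattern was not particular to these genes. Of 16813 genes searched, 116 had r over 0.95 with SIG1, 301 with SIG2, 212 with SIG3, 78 with SIG4, 584 with SIG5 and 119 with SIG6. Within each group the mean deviations also ranked the libraries as their slopes with exonic length did. What the length trend contributes to the pattern was not tested.

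Summed over SIG1 to SIG6, the level was 82.4, 58.1 and 78.1 CPM per kilobase for the wild type against 69.7, 90.2 and 53.6 for the mutant, so the groups overlapped. The percent of the sum held by each gene was compared next. SIG4 made up 12.3, 13.7 and 11.7% of it in the wild type and 16.9, 15.6 and 16.4% in the mutant. SIG5 made up 5.36, 4.54 and 4.89% in the wild type and 3.58, 3.20 and 4.03% in the mutant. SIG2 made up 21.3, 19.0 and 19.2% in the wild type and 17.2, 18.1 and 16.7% in the mutant. The share of SIG3 was 9.91 ± 0.822% in the wild type and 8.63 ± 0.367% in the mutant (SD, n = 3 each). For these 4 genes the shares of the groups did not overlap. Each had a two-sided exact permutation p of 0.1, the smallest possible, and 0.15 adjusted over the 6 genes. In CPM, a different measure, the groups overlapped for each of the 6 genes and did not overlap for 41.3% of all tested genes. The shares of SIG1, 33.4 ± 1.78% and 34.7 ± 1.65%, and SIG6, 19.3 ± 0.95% and 19.4 ± 1.34%, overlapped (SD, n = 3 each, exact permutation p 0.6 and 0.9). With the length trend of each library taken out, a step added after seeing the data, the same 4 genes had shares that did not overlap, with SIG4 at 13.2 ± 0.898% in the wild type and 15.6 ± 0.513% in the mutant (SD, n = 3 each). Shares sum to 100%, so a rise of 1 member lowers the others.

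**Figure D4:**
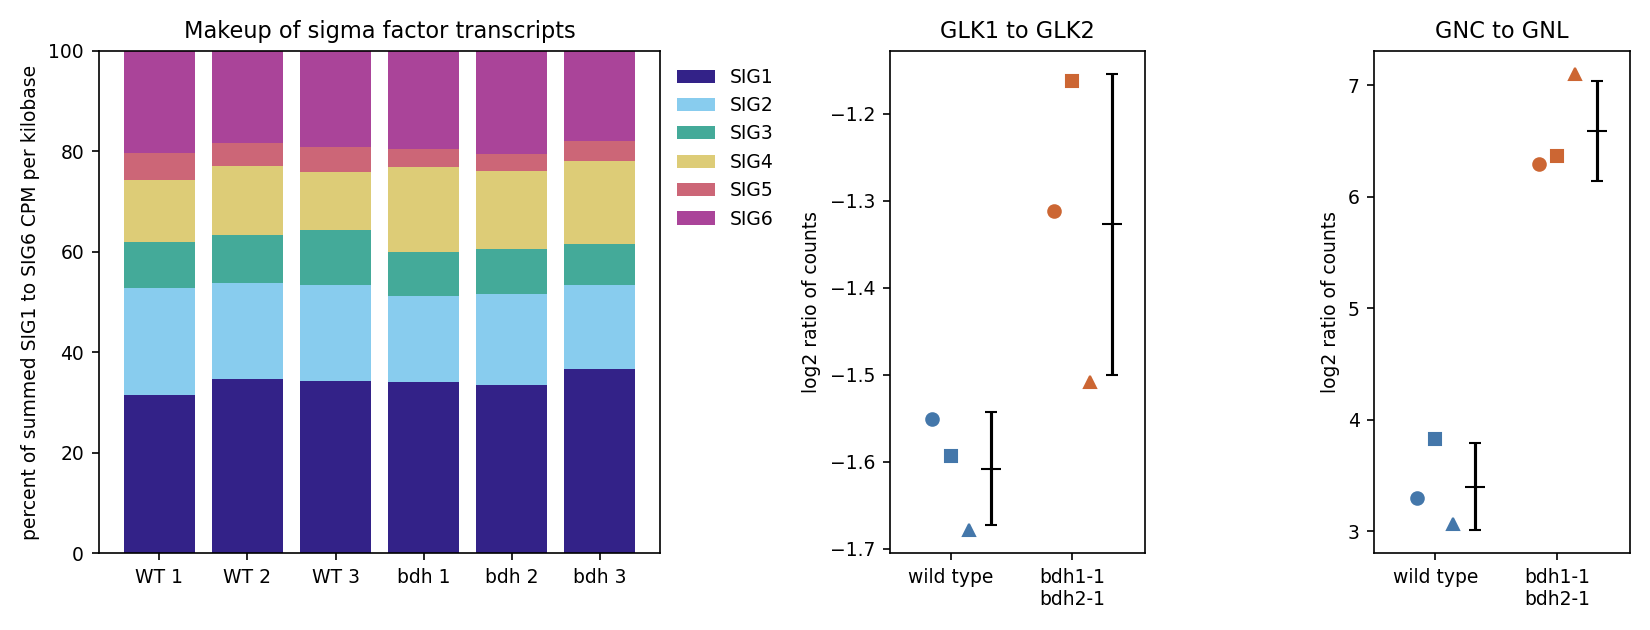
Left, percent of the summed CPM per kilobase of SIG1 to SIG6 held by each gene in each library (WT, wild type; bdh, mutant; numbers are replicates). Middle and right, log2 ratio of counts of GLK1 to GLK2 and of GNC to GNL per library, with the mean and SD of 3 libraries. SIG4 holds 11.7 to 13.7% in the wild type and 15.6 to 16.9% in the mutant, and for both ratios all 3 mutant libraries lie above the wild-type libraries.

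In the wild type the order of levels per kilobase was GLK2 (46.6 CPM per kilobase), SIG1 (24.3), GLK1 (15.3), SIG2 (14.5), SIG6 (14.1), GNC (10.6), SIG4 (9.08), SIG3 (7.23), SIG5 (3.63) and GNL (1.15). The wild-type libraries separated GLK2 from SIG1, SIG1 from GLK1, SIG3 from SIG5 and SIG5 from GNL. Neighbours in the stretch from GLK1 down to SIG3 overlapped. The 15 pairs of sigma factor genes were 60.7 to 66.7% identical over aligned coding bases, and GLK1 and GLK2 were 68.3% identical over 1120 aligned bases.

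Genes that GLK proteins are known to activate did not move as 1 group. Of 17 tested antenna genes 7 were called and all 7 were lower, where 11.3% of all tested genes were called lower, with a median log2 fold change of -0.26 over the 17 against 0.00 over all tested genes. LHCB1.4 (-2.62), LHCB1.1 (-1.93), LHCB1.2 (-1.69) and LHCB2.4 (-0.998) had the largest changes, with edgeR adjusted p values from 0.000613 to 0.00584. These 4 kept the call in all 22 alternatives, though LHCB1.1 and LHCB1.2 match LHCB1.3 at 96.1% identity, and the authors' counting could divide shared reads among them. LHCB1.3, the most abundant of the listed antenna genes, was not called. It stood at 7612 ± 502 CPM in the wild type and 6364 ± 889 CPM in the mutant (SD, n = 3 each). Its log2 fold change was -0.26 (edgeR adjusted p 0.195), and -0.39 with length offsets (adjusted p 0.0984). LHCB1.5, which overlaps 2 genes on the opposite strand, was listed at 0 in all 6 libraries and was not tested. Of 8 tested chlorophyll synthesis genes 2 were higher and 1 lower, beside 12.1% and 11.3% of all tested genes. PORB rose from 642 ± 46.9 to 1104 ± 255 CPM and PORA from 553 ± 51 to 950 ± 251 CPM (SD, n = 3 each), both with a log2 fold change of 0.78 (edgeR adjusted p 0.00862 and 0.0126). These encode protochlorophyllide oxidoreductases, which carry out the light-requiring step. HEMA1, for the first committed enzyme of tetrapyrrole synthesis, fell from 180 ± 20.3 to 131 ± 15.4 CPM (SD, n = 3 each, with -0.46 as log2 fold change and an edgeR adjusted p of 0.022). The call of HEMA1 was lost in 11 of 22 alternatives and that of PORA in 6.

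Proteins that work with GLK factors or act on their genes had values in both directions. Of the 4 partner genes all had negative values and 1 was called, against 23.5% of all tested genes. This was ORE1, a NAC factor of senescence (means of 22.6 ± 2.02 and 16.9 ± 0.932 CPM, SD, n = 3 each, with -0.42 as log2 fold change and an edgeR adjusted p of 0.0187). The G-box binding factor genes GBF1 (-0.28), GBF2 (-0.36) and GBF3 (-0.20) were not past the threshold, with edgeR adjusted p values from 0.0649 to 0.196. Over the 22 alternatives ORE1 lost its call in 5 and GBF2 gained one in 6. Of 9 regulators 2 were lower and 1 higher, beside 11.3% and 12.1% of all tested genes, with a median log2 fold change of -0.28 (-0.08 with length offsets). PIF4 (-0.73) fell and PIF3 (0.53) rose, both phytochrome-interacting factors that act in darkness (edgeR adjusted p 0.0121 and 0.0087). GUN1, a plastid protein of retrograde signalling, was just past the threshold (-0.29, edgeR adjusted p 0.0499) and had a value of -0.07 with length offsets (adjusted p 0.605). Its call was lost in 16 of 22 alternatives.

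On the plastid side, of 13 tested genes for proteins associated with the plastid-encoded polymerase 3 were higher and 1 lower, 4 of 13 called where 23.5% of all tested genes were called. Their median log2 fold change was 0.18, against 0.00 over all tested genes. PAP12 rose from 19.5 ± 3.56 to 31.9 ± 3.49 CPM and PAP6, a fructokinase-like protein gene, from 7.67 ± 0.397 to 12.2 ± 2.06 CPM (SD, n = 3 each), with log2 fold changes of 0.71 and 0.67 (edgeR adjusted p 0.00802 and 0.0098). PAP4, an iron superoxide dismutase gene, was higher (0.53, adjusted p 0.0258) and PAP8 lower (-0.33, adjusted p 0.0332) by edgeR, and both lost the call in 11 or more of 22 alternatives, PAP12 in 3 and PAP6 in 2. With length offsets PAP12 was at 0.53 and kept the call, and PAP4 was at 0.40 and lost it (edgeR adjusted p 0.0789). Among the genes for phage-type polymerases, RPOTp, which transcribes plastid genes independently of sigma factors, fell from 10.2 ± 1.43 to 4.75 ± 0.765 CPM (SD, n = 3 each). Its log2 fold change was -1.10 (edgeR adjusted p 0.00203), and -0.86 with length offsets, with the call kept in all 22 alternatives. RPOTm (-0.52, edgeR adjusted p 0.0512) and RPOTmp (-0.27, adjusted p 0.329) were not past the threshold. With length offsets RPOTm was at -0.29 (edgeR adjusted p 0.146) and RPOTmp at -0.01 (adjusted p 0.983). RPOTp overlaps AT2G24110 on the same strand and RPOTm overlaps AT1G68980 on the opposite strand.

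The libraries were made from polyadenylated RNA, so for transcripts of the plastid genome a change in level and one in polyadenylation cannot be told apart. None of the 4 polymerase core genes passed the threshold, against 23.5% of all tested genes. Their log2 fold changes were -0.13 for rpoA, -0.01 for rpoB, -0.32 for rpoC1 and -0.69 for rpoC2, with edgeR adjusted p values from 0.166 to 0.961, 0 with an unadjusted p under 0.05 and 0 called by DESeq2. Without wild-type replicate 2 rpoC2 was past the threshold (-0.95, edgeR adjusted p 0.0399), and without wild-type replicate 3, which held 730 of its counts against 312 and 243 in the other wild-type libraries, its value was -0.085 (adjusted p 0.799). Of 9 plastid genes chosen for links to sigma factors 1 was called, against 23.5% of all tested genes. This was psaJ, a photosystem I subunit gene transcribed with SIG2, and it rose from 8.30 ± 0.737 to 13.0 ± 2.06 CPM (SD, n = 3 each, with 0.64 as log2 fold change and an edgeR adjusted p of 0.0112). Its call was lost in 4 of 22 alternatives, among them the replicate block (0.64, edgeR adjusted p 0.05002) and the fit without mutant replicate 1 (0.57, edgeR adjusted p 0.062). The SIG5-linked psbD and the SIG4-linked ndhF had values of 0.06 (edgeR adjusted p 0.856) and -0.85 (adjusted p 0.201), the latter at 0.814 ± 0.447 CPM in the wild type and 0.451 ± 0.181 CPM in the mutant (SD, n = 3 each). The sigma factor binding protein genes were not tested, with SIB1 at 0 to 12 counts and SIB2 listed at 0 in all libraries. SIB2 overlaps AT2G41178 on the opposite strand, so reads shared with it may not have been counted.

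**Figure D5:**
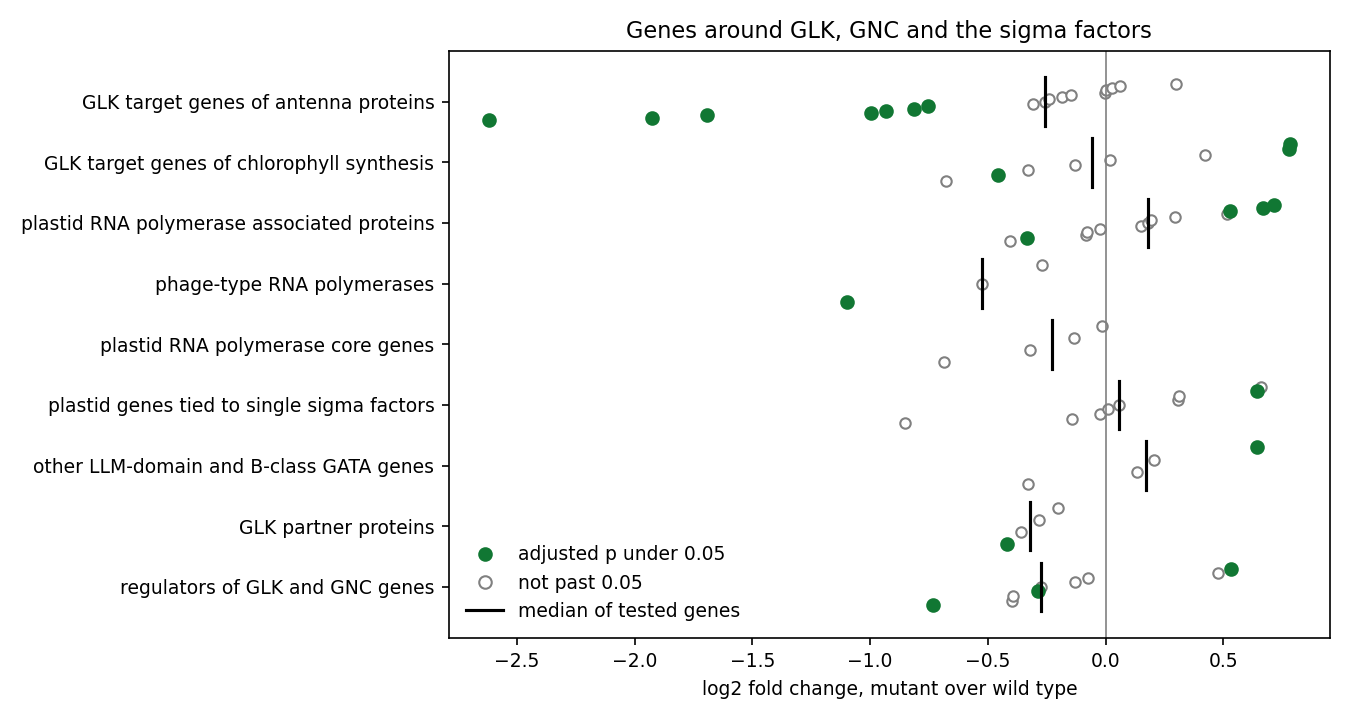
Log2 fold change, mutant over wild type, of each tested gene in 9 lists around the 10 regulators. Filled circles had an edgeR adjusted p under 0.05, open circles did not, and black lines mark the median of the tested genes. All 7 called antenna genes lie below 0, whereas the called genes for chlorophyll synthesis and for polymerase-associated proteins lie on both sides.

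The patterns most like that of each gene were taken as the 2 highest Pearson correlations of log2 CPM over the 6 libraries, among genes with a mean log2 CPM of at least 1. For GNL these were AT5G48530 (0.998) and AT1G77930 (0.997), and 609 genes had r over 0.95. For GLK2 they were AT5G51340 (0.998) and AT5G26180 (0.989), with 57 such genes. For GLK1 they were AT1G77770 (0.998) and AT1G26660 (0.988), and 14 genes had r over 0.95, the fewest of the 10. For SIG5 they were AT2G47250 (0.999) and E2F1 (0.997), with 584 such genes. For GNC they were AT1G50450 and AT5G16030 (0.996 each), for SIG1 SBE2.1 and AT2G16860 (0.995 each), and for SIG2 AT1G65230 and AT5G41020 (0.997 each). The remaining pairs were LINC3 (0.998) and CIP4.1 (0.997) for SIG3, AT2G37420 (0.998) and AT3G17580 (0.992) for SIG4, and AT2G20280 (0.9995) and WRKY9 (0.997) for SIG6. With 6 libraries and so many genes such values are reached by many genes, and they describe only these libraries.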

How the data were processed

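Polyadenylated RNA of 6 samples was sequenced from strand-specific DNBSEQ libraries, per the labels' protocols. Deposited were the authors' raw counts, a whole number for each gene and library, neither normalized nor pooled. The submitters' processing notes name TAIR10, STAR 2.7.10b, featureCounts, Subread 2.0.3 and DESeq2 1.38, while the strand setting and annotation are not given in the sources used here. The authors also deposited a comparison with a mean normalized count (a signal over all libraries), a log2 fold change, and p-values before and after adjustment, per the file headers.

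Counts were fitted over all genes with edgeR 4.0.16 in R 4.3.3 (filterByExpr, TMM factors, glmQLFit and glmQLFTest, Benjamini-Hochberg, threshold 0.05). SE is the absolute log2 fold change over the square root of F, and 95% intervals use the fit's total degrees of freedom. CPM are TMM scaled. A prior count of 0.5 was added for count ratios, and shares and ratios were compared by exact permutation in SciPy 1.17.1. Exonic length, overlaps and sequences came from TAIR10.1 (the files hold no coordinates), and copies from blastn 2.17.0+. Length offsets came from a natural spline (4 degrees of freedom) of each library's deviations on log2 exonic length, fitted on 16773 genes. Plastid genes had no length and no such correction. Even numbers made up 72.6 to 76.7% of counts from 1 to 20 per library, and 1 count need not stand for 1 RNA molecule. Within groups, libraries differed by more than sampling noise (chi-square per degree of freedom 15.2 or more).

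As alternatives the fit was repeated with upper-quartile or RLE factors, with DESeq2 1.42.0, with no filter or at least 10 counts everywhere, with counts halved, a replicate block, length offsets with and without the block, an adjusted p of 0.01 and each library left out. The last with length offsets, and length-adjusted shares, were added after seeing the data. The 10 genes and all lists were chosen with earlier results of these data known. The text names all 10 genes, at most the 4 most changed called genes of a list, every gene of a list of 5 or fewer, and the 2 most alike genes. In addition psbD, ndhF, CASP1, PIN2, COBL9, EXPA7, PRP3, LHCB1.3, LHCB1.5 and the GNL neighbours were chosen after their values were seen. Root, light and seed storage markers were lists as well. Seed storage genes spread widely among wild-type libraries (0.531 to 90.4 summed CPM, 1.00 to 2.00 in the mutant). On simulated counts of 20628 genes, of which 200 were changed, 91.8% of 2-fold and 57.9% of 1.5-fold changes were recovered, with 9 of 179 calls false. In the data 4882 of 20791 tested genes were called, so these rates need not hold there.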

Additional observations from a re-analysis of the deposited data

How the results depend on the processing

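GNL kept its direction and its call wherever it was tested. When 10 counts were required in every sample GNL was not tested. Then 0 of the other 9 genes were called by edgeR, where 4748 of 19667 tested genes were called. GLK2 and SIG5 had unadjusted p values under 0.05 in edgeR with the usual filter and were called by DESeq2. DESeq2 thus called 3 of the 10 genes, where it called 5594 of 22260 tested genes. Length offsets called 2 of the 10, against 19.9% of all tested genes. Leaving out 1 library, with or without length offsets, gave 1 to 3 called genes among the 10, with 3 without wild-type replicate 2 (5558 of 21088 tested genes called, 4658 with the offsets). Without mutant replicate 3 it gave 2 without the offsets (3373 of 21071 tested genes called) and 1 with them. Over all genes 4882 were called, with 1649 at an adjusted p under 0.01 and 1798 to 5558 when 1 library was left out. Without wild-type replicate 1, wild-type replicate 3 or mutant replicate 1 it was 2373, 2682 and 1811.

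Libraries of the same replicate number did not deviate alike: deviations from the group means correlated at 0.047, -0.281 and -0.168 for numbers 1, 2 and 3, and most strongly between wild-type replicate 2 and mutant replicate 3 (0.305). These correlations cannot decide whether libraries of the same number were prepared together. With a replicate block 2090 genes were called, and 2074 with length offsets as well, 1 of them among the 10 genes (GNL) in both. With the block GNL had a log2 fold change of -3.27, and the differences of the log2 ratios stayed at 0.28 and 3.19 (exact sign-flip p 0.25, the smallest 3 pairs can give).

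Signs turned for 10 genes, none of them called. SIG6 was 0.015 with upper-quartile factors and 0.012 with length offsets. Without 1 library, with or without length offsets, SIG6 ranged from -0.276 to 0.215, GLK1 from -0.167 to 0.07, GNC from -0.238 to 0.058, SIG1 from -0.163 to 0.226, SIG3 from -0.464 to 0.019, RPOTmp from -0.471 to 0.094, rpoA from -0.302 to 0.049, rpoB from -0.191 to 0.125, GATA15 from -0.086 to 0.235 and GATA17L from -0.062 to 0.328. With upper-quartile factors rpoB was 0.016, and GATA15 was -0.036 with length offsets and -0.034 with the block added. The share of SIG6 differed by -0.035 points with length adjustment and by -0.479 to 0.845 without 1 library. The cause was not tested. Low counts limit GNL and ndhF, and kept GATA23, GUN4 and SIB1 from being tested. GUN4 overlaps AT3G59410 on the opposite strand, so its counts may lack shared reads. The called genes PORB, PAP8, PAP12 and LHCB2.4 also overlap genes on the opposite strand, with the same uncertainty as for SIG4.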
